A study of Mus musculus with 6 samples.

Results

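The 10 genes described here, Shroom2, Shroom3, Rock1, Rock2, Myh9, Myh10, Rhoa, Rac1, Cdc42 and Enah, encode parts of the actomyosin machinery that bends the lens placode into a pit. They were followed through every array probe that carries their symbol, or an older name of the same gene, in the platform annotation. That gave 21 probes for 9 of the 10 genes out of 45281 probes on the array, and no probe carries the name of Rock2. Of the 21 probes, 16 passed the filter on dim probes and were tested, among 19552 tested probes in all, and they cover the same 9 genes. None of the 16 differed between genotypes at an adjusted p under 0.05 (limma with Benjamini-Hochberg adjustment), where 4.58% of all tested probes did. Of the 5 probes left untested, 4 were detected on no array.

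The samples were laser microdissected lens placode regions of E10.5 mouse embryos of a mixed background (FVB; 129), measured on 6 Illumina bead arrays. The 3 WT arrays came from CBP/p300 fl/fl embryos without Pax6-Cre, called wild type in the sample records, with lens placode as the tissue. The 3 DCKO arrays came from CBP/p300 fl/fl embryos with Pax6-Cre, recorded as CBP/p300-/- with surface ectoderm as the tissue. Both groups carried the floxed alleles of both genes. Pax6 regulatory sequences confine Cre largely to surface ectoderm that will form lens and cornea, so other cells of a dissected region keep the floxed genes. DCKO embryos do not form a lens pit. The article describes 3 biological replicates of each genotype, whereas the sample records describe pooled RNA of 3 embryos of a genotype that was amplified in triplicate, so p-values may measure technical spread only.

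Invagination of the placode depends on apical constriction, in which each columnar cell narrows at its outer surface and the sheet folds inwards. The scaffold Shroom3 gathers at apical junctions and recruits the kinases ROCK1 and ROCK2, which phosphorylate the myosin light chain and so activate non-muscle myosin II, a motor whose heavy chains are the products of Myh9 and Myh10. RhoA switches on the ROCK kinases, Rac1 and Cdc42 drive actin assembly and protrusions, and Mena, the product of Enah, lengthens actin filaments. In the lens placode, Shroom3 and RhoA are known for apical constriction, Rac1 for cell elongation, and Cdc42 for the filopodia that tie the placode to the optic vesicle.

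Promoter sequences of 3 members are shown, each with the 250 bases upstream of a RefSeq start (GRCm38.p6). They were chosen because Shroom3 has 2 tested probes annotated to different transcripts, NM_001077596 and NM_001077595, and because Enah and Cdc42 each have several tested probes, of which 1 separated the genotypes, in opposite directions. Capitals mark CCAAT and GGGCGG, each searched on both strands, so that a match on the other strand reads ATTGG or CCGCCC, and adjacent matches of GGGCGG may overlap.

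Shroom3, first start, chr5:92809132-92809381, plus strand: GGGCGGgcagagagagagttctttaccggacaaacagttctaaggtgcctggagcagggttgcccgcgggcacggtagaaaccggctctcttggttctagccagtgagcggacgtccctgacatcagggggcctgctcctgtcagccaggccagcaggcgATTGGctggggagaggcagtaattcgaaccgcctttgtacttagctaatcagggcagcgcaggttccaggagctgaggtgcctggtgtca

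Shroom3, second start, chr5:92897743-92897992, plus strand: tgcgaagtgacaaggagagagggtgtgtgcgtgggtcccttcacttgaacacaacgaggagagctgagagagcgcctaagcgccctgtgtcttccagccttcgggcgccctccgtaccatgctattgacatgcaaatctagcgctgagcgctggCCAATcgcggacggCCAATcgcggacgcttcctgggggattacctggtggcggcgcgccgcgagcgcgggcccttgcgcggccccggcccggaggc

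Enah, chr1:182019981-182020230, minus strand: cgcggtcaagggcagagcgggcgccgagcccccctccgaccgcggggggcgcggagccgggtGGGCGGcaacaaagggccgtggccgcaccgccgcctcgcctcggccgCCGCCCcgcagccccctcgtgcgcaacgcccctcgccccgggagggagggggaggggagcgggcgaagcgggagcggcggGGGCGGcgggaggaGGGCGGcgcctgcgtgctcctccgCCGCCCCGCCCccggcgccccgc

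Cdc42, chr4:137357760-137358009, minus strand: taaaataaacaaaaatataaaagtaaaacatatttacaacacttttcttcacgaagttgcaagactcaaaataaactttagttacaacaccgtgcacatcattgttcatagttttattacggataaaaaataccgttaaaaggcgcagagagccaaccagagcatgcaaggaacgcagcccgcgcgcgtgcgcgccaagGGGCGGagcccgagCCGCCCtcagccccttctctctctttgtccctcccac

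The 2 Shroom3 starts differ in make-up. The first holds 1 CCAAT match, 1 GGGCGG match and 12 CpG dinucleotides, and the second holds 2 CCAAT matches, no GGGCGG and 27 CpG. The table does not say which start belongs to which transcript. Both Shroom3 starts lie inside the gene, whose upstream end at 92683435 has no window. The Enah start also lies inside its gene, which reaches upstream to 182027556. The Enah window holds 6 GGGCGG matches and 42 CpG, more CpG than 99.1% of the 32851 windows in the table, and the Cdc42 window holds 2 matches and 15 CpG. Over all windows, 33.8% hold CCAAT and 32.7% hold GGGCGG. Of the 13 windows of the members, 4 hold CCAAT and 7 hold GGGCGG, and the CArG box, which binds serum response factor, was found in none of the 13 and in 1.47% of all windows.

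Of the deleted genes, 1 of 4 tested Ep300 probes fell, with values of 6.58, 7.23 and 7.01 in WT and 4.92, 4.67 and 5.26 in DCKO, where it was detected on no array (at least 2.86-fold lower, the WT mean being set against the lowest detected signals of the DCKO arrays; adjusted p = 0.016). A second Ep300 probe, also detected on no DCKO array, differed by -1.30 without overlap but did not pass (adjusted p = 0.063). The other Ep300 probes differed by -0.19 and -0.03. None of the 3 Crebbp probes passed (-0.76 to -0.10), and those at -0.76 and -0.56 did not overlap. Over all tested probes, 27.4% did not overlap. The position of these probes relative to the deleted part is not known, so they say nothing about the deletion itself. Between 18081 and 19769 probes were detected per array. Correlation over tested probes was 0.930 to 0.934 within WT, 0.879 to 0.883 within DCKO and 0.838 to 0.857 between genotypes, so that the DCKO arrays resembled each other less than the WT arrays did.

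Levels are log2 intensities after background correction and quantile normalization, so a difference of 1 is a doubling. Because probes differ in how well they hybridize, levels were compared between arrays and not between probes. By its brightest tested probe, the mean was lower in DCKO for 5 genes (Shroom3, Rock1, Myh9, Rhoa and Enah) and higher for 4 (Shroom2, Myh10, Rac1 and Cdc42). Among genes taken this way, 4.88% of 10123 were called and 0 of the 9 members were. At an adjusted p under 0.1 it was 9.29% of all genes and again 0 of the 9 members. The median absolute difference was 0.43 for the 9 genes and 0.41 for all genes. The 3 WT and 3 DCKO values did not overlap for 3 of the 16 probes, against 27.4% of all tested probes, and for 2 of the 9 genes, against 29% of all genes. At an unadjusted p under 0.05 there were 3 member probes, the same 3 as those without overlap, against 20.6% of all tested probes.

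**Figure D1:**
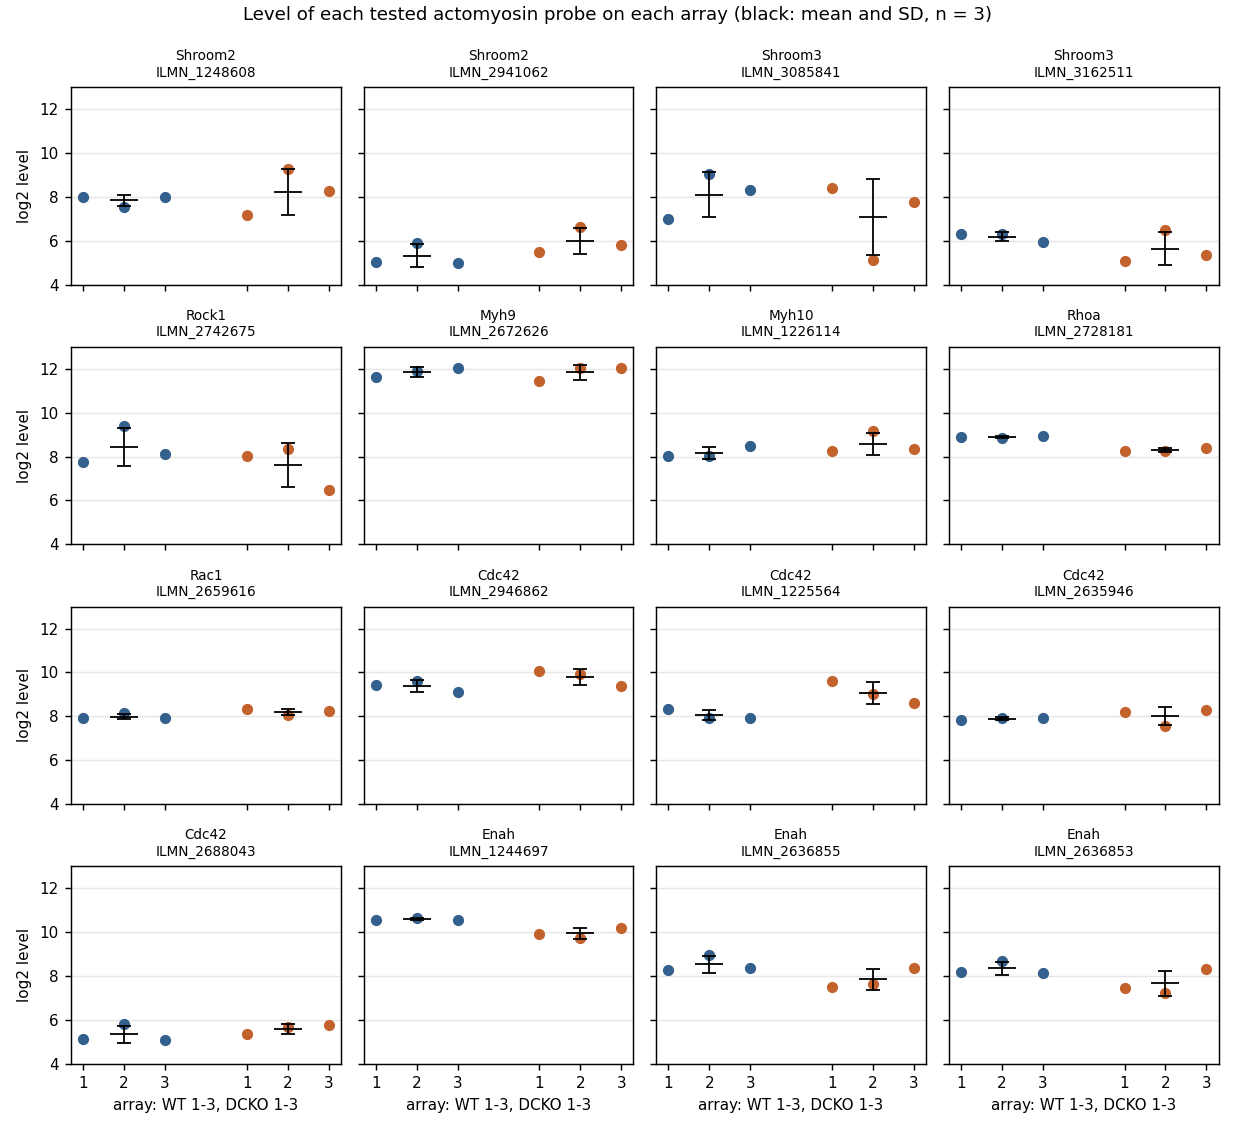
Log2 level of the 16 tested member probes on each of the 3 WT (blue) and 3 DCKO (orange) arrays, 1 panel per probe on a common axis, with the mean and SD (n = 3) in black. Rhoa, the first Enah probe and the second Cdc42 probe are the 3 whose colours do not overlap, and the first Shroom3 probe and Rock1 have widely scattered arrays within both genotypes.

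The Shroom scaffolds were among the most scattered members. Shroom3 lies on chromosome 5 (92683435 to 92965759, GRCm38.p6) and Shroom2 on chromosome X (152609509 to 152770788). The brighter Shroom3 probe (ILMN_3085841) read 7.00, 9.02 and 8.29 on the WT arrays and 8.39, 5.13 and 7.77 on the DCKO arrays. The lowest value, on DCKO 2, was not detected above background, and the other 2 DCKO arrays lay within the WT range. The difference was -1.01 ± 0.92 (SE, 3 arrays per genotype; 95% interval -3.22 to 1.20, adjusted p = 0.60), an interval that runs from 0.11 to 2.30 times the WT level.

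The dimmer Shroom3 probe (ILMN_3162511), annotated to the other transcript, read 6.31, 6.31 and 5.94 in WT and 5.06, 6.50 and 5.34 in DCKO. Here DCKO 2 was the highest array and the only DCKO array on which the probe was detected, so that the 2 probes ranked the DCKO arrays in opposite order. The difference was -0.56 ± 0.41 (95% interval -1.53 to 0.42, adjusted p = 0.51). Without DCKO 2, the difference of the brighter probe was -0.03 and that of the dimmer probe -1.02, and neither passed.

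Shroom2, a relative of Shroom3 that also binds ROCK and apical actin, had values of 7.98, 7.56 and 7.99 in WT and 7.18, 9.27 and 8.25 in DCKO with its brightest probe (ILMN_1248608). The DCKO arrays lay on both sides of the WT arrays. The difference was 0.39 ± 0.52 (95% interval -0.85 to 1.63, adjusted p = 0.73) and changed sign, to -0.13, when DCKO 2 was left out. A second probe (ILMN_2941062), detected on 1 WT and all 3 DCKO arrays, read 5.91 on its 1 WT array, with a WT mean of 5.31 over 3, and 5.50, 6.63 and 5.79 in DCKO, and differed by 0.66 ± 0.41 (adjusted p = 0.42). The remaining probe was detected on no array.

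ROCK1, the kinase that Shroom3 brings to the junction, was read by 1 probe. Rock1 levels were 7.75, 9.40 and 8.14 in WT and 8.01, 8.36 and 6.49 in DCKO. The highest array was a WT array and the lowest a DCKO array, but the other 4 were interleaved. The difference was -0.81 ± 0.62 (95% interval -2.30 to 0.68, adjusted p = 0.53), and it ranged from -1.18 to -0.25 when each array was left out in turn.

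The median scatter between arrays exceeded the median error of a single array. Each deposited signal, before background correction and normalization, is a mean over 23 to 61 beads. Its bead standard error was 2.20% to 5.96% of the signal (median 3.40%). The coefficient of variation of these deposited signals between arrays of a genotype was 1.58% to 48.7% (median 13.3%). It therefore also holds differences in brightness between whole arrays. For the brighter Shroom3 probe the coefficient of variation was 36.1% in WT and 48.7% in DCKO, and for Rock1 it was 39.4% and 28.2%. For Rhoa it was 5.25% and 12.6%.

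**Figure D2:**
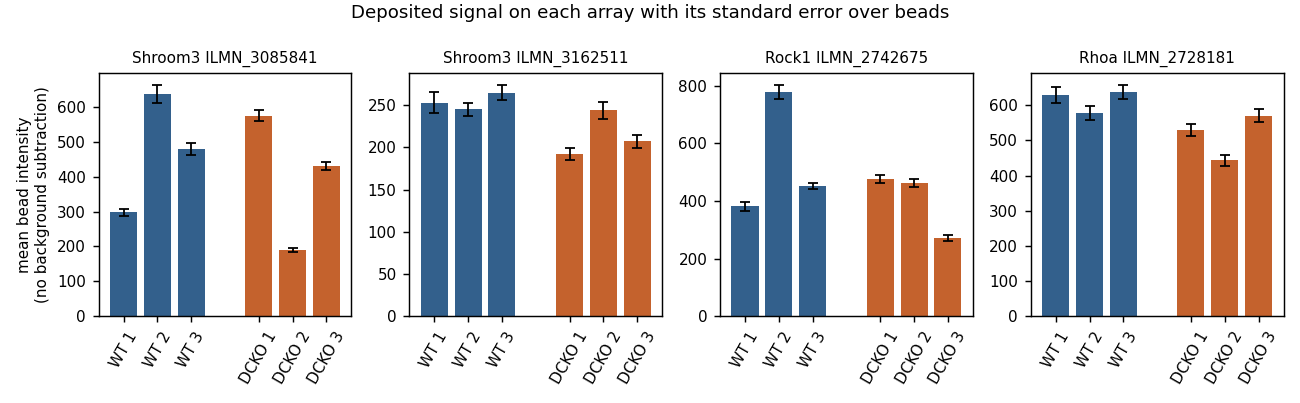
Mean bead intensity as deposited, before background correction and normalization, of 4 member probes on the 3 WT (blue) and 3 DCKO (orange) arrays. Bars are the signal and whiskers the standard error over the beads of 1 array. For the first Shroom3 probe and Rock1, arrays of 1 genotype differ by many times the whiskers. For Rhoa the 3 DCKO bars stand below the 3 WT bars, though WT 2 and DCKO 3 differ by less than a whisker.

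The motor chains lie on chromosome 15 (Myh9, 77760585 to 77842175) and chromosome 11 (Myh10, 68691915 to 68816626). Myh9, which encodes the heavy chain of non-muscle myosin IIA, read 11.62, 11.92 and 12.05 in WT and 11.43, 12.05 and 12.03 in DCKO (ILMN_2672626). The 2 genotypes spanned nearly the same range. The difference was -0.03 ± 0.27 (95% interval -0.67 to 0.62, adjusted p = 0.97), an interval of 0.63 to 1.54 times the WT level, and it turned to 0.10 without normalization between arrays and lay between -0.15 and 0.18 with each array left out. The other 2 Myh9 probes were detected on no array.

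Myh10, the heavy chain gene of non-muscle myosin IIB, read 8.00, 8.01 and 8.47 in WT and 8.24, 9.16 and 8.36 in DCKO (ILMN_1226114). DCKO 2 was the highest, and the other 2 DCKO arrays lay within the WT range. The difference was 0.43 ± 0.32 (95% interval -0.34 to 1.20, adjusted p = 0.52). A second Myh10 probe (ILMN_1234018) read 5.44, 4.80 and 5.69 in WT, with detection on 2 arrays, and 5.18, 4.86 and 4.77 in DCKO, with detection on none, and was not tested, and the remaining one was detected on none.

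Among the GTPases, Rhoa (chromosome 9, 108306160 to 108337943) had tight arrays, with an SD of 0.055 in WT and 0.073 in DCKO (n = 3). It read 8.90, 8.82 and 8.93 in WT and 8.24, 8.27 and 8.38 in DCKO. Every DCKO array lay below every WT array. The same held for the deposited signals, which lay between 578 and 638 on WT arrays and between 444 and 571 on DCKO arrays. The closest deposited signals, of WT 2 and DCKO 3, had bead standard errors of 19.1 and 19.2, each more than the gap between them. The difference was -0.59 ± 0.20 (95% interval -1.07 to -0.11), or 1.50 times lower in DCKO with an interval of 1.08 to 2.10, and did not pass after adjustment over all tested probes (adjusted p = 0.16). Leaving out each array in turn kept it between -0.63 and -0.56, and with no normalization between arrays it was -0.34 (adjusted p = 0.54).

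Rac1 (chromosome 5, 143505481 to 143528031), the GTPase that acts through branched actin, read 7.92, 8.13 and 7.90 in WT and 8.32, 8.06 and 8.24 in DCKO. The ranges overlapped through 1 array of each genotype. The difference was 0.23 ± 0.21 (95% interval -0.28 to 0.74, adjusted p = 0.61), so that a level between 0.82 and 1.67 times that of WT remained within the interval.

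Cdc42 (chromosome 4, 137319696 to 137357759), the GTPase of filopodia, had 4 tested probes, all annotated to 1 transcript and all with a higher mean in DCKO. The brightest (ILMN_2946862) read 9.43, 9.63 and 9.08 in WT and 10.07, 9.91 and 9.38 in DCKO, and the ranges overlapped. Its difference was 0.41 ± 0.28 (95% interval -0.27 to 1.09, adjusted p = 0.48). The second (ILMN_1225564) read 8.31, 7.93 and 7.91 in WT and 9.61, 9.02 and 8.60 in DCKO.

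All 3 DCKO arrays of this second Cdc42 probe lay above all 3 WT arrays. The difference was 1.02 ± 0.32 (95% interval 0.27 to 1.78), or 2.03 times higher with an interval of 1.20 to 3.44, and its adjusted p of 0.13 was the smallest of any member probe. The third (ILMN_2635946) read 7.81, 7.90 and 7.94 in WT and 8.20, 7.55 and 8.28 in DCKO (0.13 ± 0.27, adjusted p = 0.84). The fourth (ILMN_2688043), detected on 1 WT and 2 DCKO arrays, read 5.12, 5.78 and 5.08 in WT and 5.33, 5.66 and 5.76 in DCKO (0.26 ± 0.28, adjusted p = 0.67). Both overlapped between genotypes, and each turned to about -0.01, the third without DCKO 3 and the fourth when arrays were scaled to the 75th percentile. The 4 probes of this gene therefore spanned 0.13 to 1.02.

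Enah (chromosome 1, 181896384 to 182027556), whose product Mena extends actin filaments at junctions and protrusions, had 3 tested probes with lower means in DCKO. The brightest (ILMN_1244697) read 10.54, 10.64 and 10.57 in WT and 9.92, 9.72 and 10.19 in DCKO. Every DCKO array lay below every WT array, and the 3 WT arrays lay within 0.10 of each other. The difference was -0.64 ± 0.23 (95% interval -1.18 to -0.10), or 1.56 times lower with an interval of 1.08 to 2.27, and did not pass (adjusted p = 0.17).

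The other 2 Enah probes gave nearly the same size. ILMN_2636855 read 8.25, 8.97 and 8.37 in WT and 7.51, 7.63 and 8.38 in DCKO, a difference of -0.70 ± 0.34 (adjusted p = 0.31). ILMN_2636853 read 8.20, 8.69 and 8.14 in WT and 7.44, 7.22 and 8.32 in DCKO, a difference of -0.68 ± 0.36 (adjusted p = 0.35). In both, DCKO 3 reached into the WT range and the other 2 DCKO arrays lay below it. The probes measure 1 gene in the same samples and are not replicates of each other.

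The precision sets what could have been called. At each probe's own standard error, the smallest difference that would have been called was 0.97 for Rhoa, 1.03 for Rac1, 1.08 for the brightest Enah probe and 1.30 for Myh9, and it was 2.50 for Shroom2, 2.99 for Rock1 and 4.44 for the brighter Shroom3 probe. The median over the 16 probes was 1.53, against 1.64 over all tested probes. The 95% interval lay wholly between -1 and 1 for 4 probes, those of Myh9 and Rac1 and 2 of Cdc42. For all other probes, a doubling or halving lay within the interval.

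**Figure D3:**
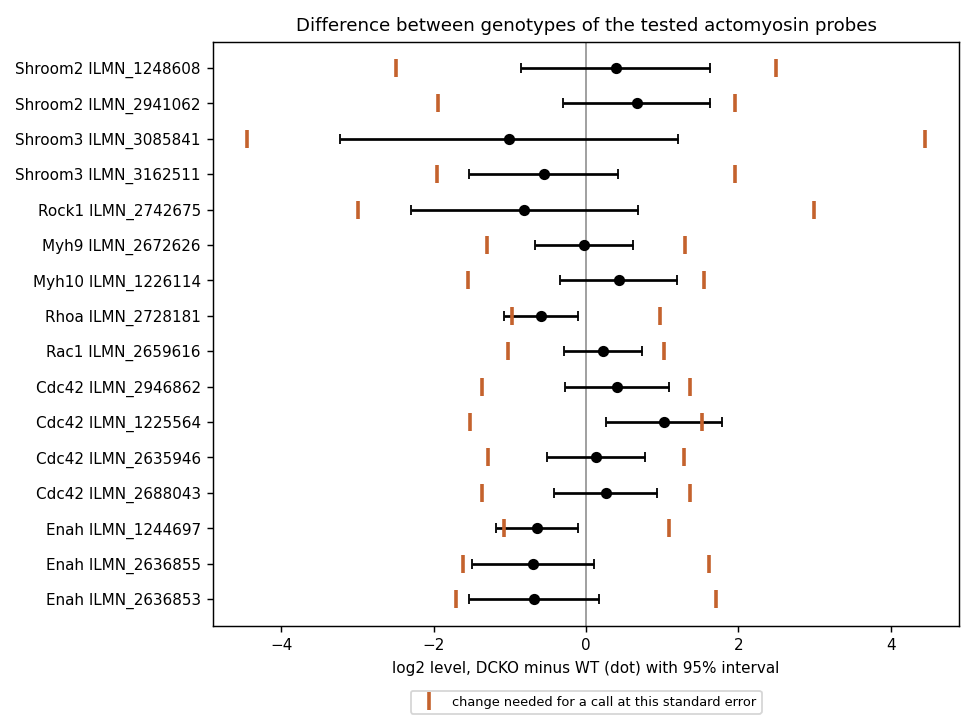
Difference in log2 level, DCKO minus WT, of the 16 tested member probes (dots) with 95% intervals (limma, 3 arrays per genotype). Orange ticks mark the difference that would have been called at that probe's standard error, and every dot lies inside its ticks, with the widest gap at the brighter Shroom3 probe (4.44).

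The partners of these genes were taken from 8 lists of 136 genes. A tested probe was found for 102 of them, 14 had no probe of that name and 20 had none that passed the filter. By the brightest probe, 2 genes fell and 1 rose, or 2.94% of those tested against 4.88% of all genes, and the median difference was -0.05 against 0.01 for all genes. No gene passed among the 9 tested Shroom and junction partners (median -0.10), the 9 myosin chains and regulators (0.20), the 8 formins, LIM kinases, cofilins and related effectors (-0.0037), the 12 Ena/VASP genes and partners (-0.13) or the 17 actins and filament binding proteins (0.02).

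Arhgap24 and Iqgap2 were the genes that fell and Srgap2 the gene that rose, and Iqgap2 was the only call among 21 tested Rac and Cdc42 effectors and Arp2/3 subunits (median 0.11). Arhgap24 encodes FilGAP, a filamin-bound GAP for Rac that acts downstream of ROCK. It read 9.14, 8.98 and 8.91 in WT and 4.76, 4.88 and 4.92 in DCKO, where it was detected on no array. Under the main background correction it was therefore at least 12.0-fold lower in DCKO, a bound taken as for Ep300 (adjusted p = 0.00051). Its log2 difference was -1.89 with no background correction and -2.82 under normexp fitted to all probes (offset 50). Both are smaller than that bound. A dimmer Arhgap24 probe, detected on 1 DCKO array, differed by -1.22 ± 0.62 and did not pass (adjusted p = 0.33). With any WT array left out, the called probe was detected on too few arrays to be tested.

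Iqgap2, a scaffold that binds active Rac1 and Cdc42, read 9.68, 10.25 and 10.15 in WT and 7.64, 8.01 and 8.25 in DCKO. The genotypes were well separated, with a difference of -2.06 ± 0.28 (adjusted p = 0.014), and a second probe fell by 2.68 (adjusted p = 0.0053), or by 1.20 with no background correction. The call of the first was lost without WT 1, WT 2 or WT 3 (adjusted p = 0.058, 0.086 and 0.098), while its size stayed between -2.23 and -1.90. Srgap2, a GAP for Rac with a membrane-bending F-BAR domain, read 5.21, 5.42 and 5.15 in WT, with detection on 1 array, and 6.56, 6.77 and 7.38 in DCKO.

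The difference of Srgap2 was 1.64 ± 0.28 (adjusted p = 0.031). With WT near background, the size moved with the background correction, to 0.52 under none, 0.89 under normexp fitted to all probes (offset 50), and 2.46 in the authors' processed values. The call missed the threshold without WT 1, 2 or 3 (adjusted p = 0.13, 0.12 and 0.14), without DCKO 2 or 3 (0.067 and 0.056), and with no background correction (0.074). Its second probe differed by 0.11 ± 0.33 (adjusted p = 0.89). Over all 194 tested probes of the listed genes, 7 were called, 3 lower and 4 higher. Of all 19552 tested probes, 895 (4.58%) were called.

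Dimmer probes of 3 genes outside the naming rule, chosen after their values were seen, account for the other calls. One of Diaph3, a formin that nucleates straight filaments, was higher by 3.64 ± 0.23 (adjusted p = 0.0011), and the brightest Diaph3 probe differed by 1.19 ± 0.44 (adjusted p = 0.19). One of Cald1, the actin-binding caldesmon, was higher by 2.51 ± 0.49 (adjusted p = 0.044), while the gene's brightest probe differed by 0.07 ± 0.32. One of Arhgef2, whose product binds microtubules, was higher by 2.30 ± 0.38 (adjusted p = 0.027), and its brightest probe by 1.06 ± 1.04 (adjusted p = 0.63). Each of the 3 called probes was detected on 1 WT array and all 3 DCKO arrays, and their sizes moved with the background correction. With none, they were 1.73 for Diaph3, 1.01 for Cald1 and 0.87 for Arhgef2. Each array left out in turn, the Diaph3 probe was called every time, the Cald1 probe only without WT 2 (3.12, adjusted p = 0.034) and the Arhgef2 probe never (adjusted p = 0.059 to 0.13).

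**Figure D4:**
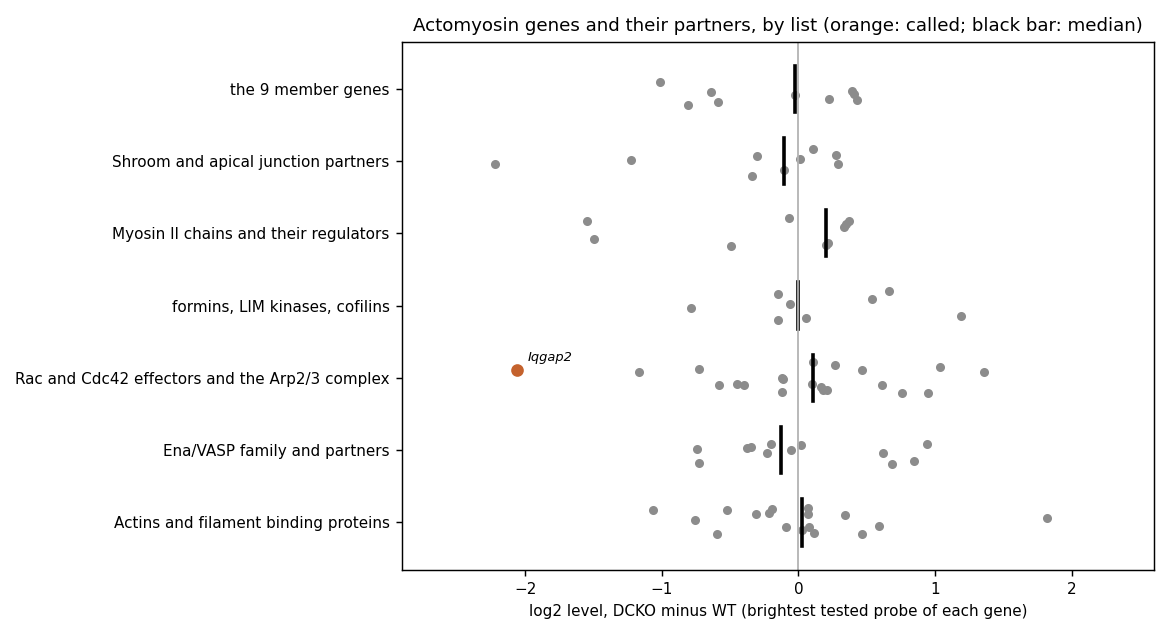
Difference in log2 level, DCKO minus WT, of the 9 member genes and of the tested genes of 6 lists of partners, each gene by its brightest tested probe (dots), with the median of each list as a black bar. Orange marks Iqgap2 (-2.06), the only gene of these lists that passed the test, and no member gene is orange.

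Genes that stand beside a member in the same step gave the following values. Cit, the kinase citron of the cleavage furrow, read 6.63, 7.73 and 7.28 in WT and 5.82, 5.41 and 5.78 in DCKO, without overlap (-1.55 ± 0.33, adjusted p = 0.055). Mylk, the myosin light chain kinase, differed by -1.50 ± 0.78 (adjusted p = 0.35), with the lowest value of 5.77 on DCKO 2. By the mean of the tested Mylk probes, an alternative rule, the gene was called (-1.54, limma adjusted p = 0.043). The light chain genes Myl9 and Myl12a leant the other way, by 0.22 ± 0.59 and 0.35 ± 0.55 (adjusted p = 0.88 and 0.78), with overlap. Myl9 was detected on 2 arrays of each genotype. Rhob, the stress-induced relative of Rhoa, read 10.24, 10.12 and 10.17 in WT and 8.83, 9.30 and 9.49 in DCKO.

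Rhob did not overlap between genotypes (-0.97 ± 0.25, adjusted p = 0.087), whereas Rhoc, another relative of Rhoa, did (-0.29 ± 0.44, adjusted p = 0.77). Evl, a relative of Enah, read 9.45 to 10.10 on the WT arrays and 10.41 to 10.83 on the DCKO arrays, a difference of 0.84 ± 0.27 with the sign opposite to that of Enah (adjusted p = 0.14). Pfn1, the profilin that feeds actin to Mena, differed by -0.35 ± 0.22 without overlap (adjusted p = 0.43). Diaph1, the formin activated by RhoA, differed by -0.15 ± 0.31, Ctnnd1, the p120 catenin that recruits Shroom3 to junctions, by 0.27 ± 0.31, Arhgap35 by -0.68 ± 0.48, and Trio, a GEF for Rac, by 0.28 ± 0.37, and the genotypes overlapped in all 4.

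The tissue itself differed between genotypes on these arrays. Lens markers fell in 8 of 8 tested genes (median -4.58), and their summed level, in linear intensity units over brightest probes, ran from 16608 to 18273 on WT arrays and from 668 to 786 on DCKO arrays. Cryaa, Crybb3 and Crygd, which encode lens crystallins, were detected on no DCKO array. Epithelial markers rose in 5 of 10 (Krt7, Krt8, Trp63, Grhl2 and Cldn6), with sums of 8017 to 9160 on WT arrays and 12267 to 15013 on DCKO arrays. Of the 10, 7 lay higher and 1 lower in DCKO without overlap (29% of all genes did not overlap), and the lowest difference was -0.82. For p63, the product of Trp63, the article reports the opposite, a loss of expression in this region of DCKO embryos by in situ hybridization. Why they differ was not tested. Macrophage markers fell in 5 of 10, with sums of 2843 to 3878 on WT arrays and 351 to 554 on DCKO arrays, where Aif1, Mpeg1, C1qc and Cx3cr1 were detected on no array.

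Muscle markers, which bear on actin and myosin genes, passed in 0 of 3 tested, with sums of 493 to 618 on WT arrays and 426 to 593 on DCKO arrays. Of the 10 listed muscle markers, 7 were not tested. Of 3 tested mesenchyme markers 1 fell (Pdgfra) and 1 rose (Prrx1), of 4 erythroid markers 1 fell, of 3 neuronal markers 1 rose, and of 3 endothelial and 3 optic vesicle markers none passed. Mesenchyme sums ran from 4305 to 4723 on WT arrays and from 558 to 1014 on DCKO arrays, with 7 listed markers not tested. Sums in WT and DCKO were 4027 to 5046 and 2576 to 2994 for erythroid markers. They were 181 to 279 and 434 to 738 for neuronal markers, and 169 to 364 and 113 to 145 for endothelial markers. Optic vesicle sums overlapped. The part of these shifts in the values of the actomyosin genes was not tested. In dissected tissue, fewer cells of a type and less RNA per cell cannot be told apart.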

How the data were processed

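The 6 arrays shared 1 chip, which leaves no batch to test. In the deposited files the authors gave, for each probe and array, the mean bead intensity without background subtraction or normalization, its standard error over beads, the number of beads and a detection p-value against negative controls. GenomeStudio, whose version is not given in the sources used here, wrote them. A table of processed intensities, deposited by the authors on a linear scale, served as an alternative. The limma package (3.58.1, under R 4.3.3) turned the intensities into log2 values through its neqc function, which estimates background from the detection p-values by normexp, adds 16 and normalizes by quantiles. A probe entered the fit (lmFit, then eBayes, no block) if 3 or more arrays had a detection p under 0.05, p-values were adjusted by Benjamini-Hochberg over all tested probes, and a probe was called at an adjusted p under 0.05. The fit was checked on simulated data. A gene is given by its tested probe with the highest mean over 6 arrays. Symbols come from the platform annotation (34885 probes with 1 symbol, 18 with several, 10378 unnamed), updated through a GRCm38.p6 gene table.

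The members and lists were chosen with earlier results of these data known. By the rule for names, all members were named by every tested probe, each called gene of a list up to 5, and at most 2 uncalled genes of a list that act beside a member. Myl9 and Myl12a, of the same list as Cit and Mylk, were added to these. The single results of 2 lists are not reported here. Promoter windows were matched by symbol for 8 of the 10 members (RefSeq, GRCm38.p6), and Rac1 and Rock1 had none. The number of arrays limits the precision. The alternatives were the authors' processed values, other background corrections, scalings, filters and thresholds, eBayes with a trend and robust moderation, a replicate block, each array left out, and other rules for the probe that stands for a gene.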

Additional observations from a re-analysis of the deposited data

How the results depend on the processing

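No member gene or probe was called under any of 20 alternatives. Of 247 values of member probes under these alternatives, 7 had the other sign, in 4 probes, and none was called, the smallest adjusted p being 0.0588 (Rhoa with no filter). The first Shroom2 probe ranged from -0.13 to 0.91 and Myh9 from -0.15 to 0.18 with each array left out, and Myh9 was 0.10, Rac1 0.48 and the first Cdc42 probe 0.64 without normalization between arrays, which moved the median of all tested probes to 0.12. The third Cdc42 probe ranged from -0.0067 to 0.36 with each array left out, and the fourth was -0.013 when scaled to the 75th percentile. The probes called of all tested numbered 895. They numbered 1762 at an adjusted p under 0.1, 218 under 0.01, 682 with no filter, 457 with detection on all 6 arrays, and 24 to 536 with each array left out (24 to 47 without a WT array). They rose to 1008 with normexp on all probes and an offset of 50, and to 1262 with trend and robust moderation. They also rose to 1137 with no background correction and to 1016 with a detection p under 0.01 on 3 arrays. In the settings where they rose so, called pathway genes, given next, rose by a larger factor. The share called among all genes was not counted there. Called pathway genes numbered 3 in the main setting, 13 at an adjusted p under 0.1, 1 under 0.01, 6 with a detection p under 0.01 on 3 arrays, 6 with no filter, 6 by the mean of a gene's probes, 9 with normexp on all probes and an offset of 50, 10 with trend and robust moderation, 11 with no background correction, and 1 to 3 with each array left out. With any WT array left out, the 1 gene was Diaph3, by its dimmer probe of the main setting, and none of the 3 main calls. Arhgap24 was then left out by the filter, as given above. For the other moves the cause was not tested. Taking the probe with the highest mean in WT, an alternative chosen after seeing the data, gave 2, without Srgap2.

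Replicate numbers did not pair the arrays: deviations of same-numbered arrays correlated at 0.03, 0.03 and 0.01, although each array correlated best with its own number. With a replicate block, 219 probes and 2 pathway genes were called (Srgap2 was not, adjusted p = 0.098), and the share of calls that were lower was 76.3% in place of 61.3%. Signals near background limit the dimmer Shroom2, Shroom3 and Cdc42 probes.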

Other observations

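Genes of the cytoskeletal lists just beyond the threshold, chosen after their values were seen, leant both ways. At an adjusted p under 0.1 (limma), 6 listed genes were lower and 7 higher in DCKO, including the 3 already called, or 12.7% of those tested against 9.29% of all genes. Lower ones were Cgnl1, Cit, Rhob and Vav2, a GEF for Rac. Cgnl1, which encodes the junction protein paracingulin, read 10.89, 10.88 and 10.75 in WT and 9.23, 7.55 and 9.07 in DCKO (-2.22 ± 0.46), with an adjusted p just above the threshold of 0.05. Its other 2 tested probes also separated the genotypes, at -1.71 and -1.02. With other settings the adjusted p of the brightest probe ran from 0.015 to 0.18. Higher ones were Arhgap29 (1.01), Pfn2 (0.94), a profilin, Pak4 (1.03), a kinase bound by Cdc42, Rhoj (1.18), a relative of Cdc42, Rnd3 (0.75) and Anln (1.82), the actin-binding anillin.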
